A study of Mus musculus with 72 samples.

Results

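The unirradiated control mice of a study of neutron and x-ray exposure were compared with each other here, as a measure of what the blood transcriptome looked like, and how much it varied, without a radiation dose. They were chosen by their labels alone, as every array named Control_day1, Control_day3 or Control_day7, which gave 16 of the 72 arrays of the series, with 5 mice at day 1, 5 at day 3 and 6 at day 7. All were male C57BL/6 mice, given by the study's methods as 8 to 10 weeks old at the time of exposure and sham-irradiated, and each array held the blood RNA of 1 mouse. The days count from the sham exposure, so the groups differ in the day of collection and in nothing that the labels name. Blood was drawn from the heart at death into an RNA stabilizing solution, globin transcripts were depleted, and Cy3-labelled RNA was hybridized to 1-colour Agilent mouse arrays. The methods describe days 1 and 7, and the arrays of day 3 are known here from their labels only. The irradiated mice were used only where the text says so.

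Whole blood RNA comes from red cell precursors and reticulocytes that still carry haemoglobin transcripts, from platelets, and from neutrophils, monocytes and lymphocytes. In mice, lymphocytes are the most abundant white cells of the blood. Albumin and most other plasma proteins are made in the liver and not by blood cells. In bulk RNA, fewer cells of a type and less RNA per cell cannot be told apart. Levels are given below as log2 intensity with the median of the detected probes of each array set to 0, so a difference of 1 is 2-fold within a gene, and levels of different genes are not compared.

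Each day of collection was scanned on 1 scan day of its own, on 2 slides, so the day after exposure and the scan day cannot be told apart in any comparison below. The share of spots well above background was alike, at 54.8 to 63.4% on day 1, 53.5 to 62.8% on day 3 and 54.3 to 63.9% on day 7. The brightness of the E1A spike-in, RNA added in the laboratory, was not alike, with medians of 11.18 to 11.63 at day 1, 8.69 to 8.93 at day 3 and 9.67 to 10.64 at day 7 on the log2 scale. Over the 16461 genes tested, arrays of the same day had a median correlation across genes of 0.974, 0.965 and 0.969 at days 1, 3 and 7, against 0.970 between days 1 and 3, 0.931 between days 1 and 7 and 0.946 between days 3 and 7. Genes are not independent replicates, and these values only describe the arrays. The array that stood furthest from the rest was mouse 5 of day 7, with a median correlation of 0.920 to the other 15. The Y-linked genes Ddx3y and Eif2s3y were well above background on all 16 arrays, and Xist, the transcript of the inactive X chromosome, on 0 of 16.

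No gene passed the thresholds between days 3 and 1, whereas day 7 stood apart from both. A gene was called where limma gave p below 0.001 and its Benjamini-Hochberg adjusted p was below 0.05. Between days 3 and 1, 0 of 16461 genes were called (0%), although 1483 genes (9.01%) had an unadjusted p below 0.05, and the random variance test of the methods also called 0. Between days 7 and 3, 344 genes were called (2.09%), of which 95 were higher (0.577%) and 249 lower (1.51%) at day 7. Between days 7 and 1, 706 genes were called (4.29%), of which 411 were higher (2.5%) and 295 lower (1.79%) at day 7. The comparisons share the day 7 mice. By the random variance test, 342 genes were called between days 7 and 3 and 707 between days 7 and 1. The study, in contrast, reported no significant genes when it compared its time-matched controls among themselves. The reason for this difference was not tested. A test over the 3 days together called 789 genes (4.79%). The groups of mice did not overlap in 319 of the 344 genes and in 593 of the 706. Over all genes tested, called or not, all mice of day 3 were above all of day 1 in 0.644% and below in 0.79%, those of day 7 above all of day 3 in 1.56% and below in 3.01%, and those of day 7 above all of day 1 in 4.26% and below in 3.72%. Neither count stood under every treatment of the same arrays. With normexp background correction of the raw spot signals both fell to 0, and with the slide as a random block the count between days 7 and 3 fell to 0 while that between days 7 and 1 was 553. The count between days 7 and 3 fell to 150, 147, 93 and 1 without mouse 1, 2, 3 or 4 of day 3, and to 84, 59 and 130 without mouse 1, 4 or 5 of day 7. The count between days 7 and 1 fell to 215, 469, 358 and 467 without mouse 1, 2, 3 or 5 of day 1 and to 402 and 341 without mouse 1 or 4 of day 7, and was 1247 without mouse 3 of day 7. Without mouse 1 of day 3, 169 genes were called between days 3 and 1.

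Among genes well above background on all 16 arrays, the transcripts that differed most from mouse to mouse were mostly those of the liver. Over all genes the median pooled within-day SD was 0.324, a 1.25-fold difference, and 760 genes (4.62%) had an SD over 1. Of these 760, 150 had a within-day correlation above 0.9 with the mean level of the hepatocyte list described below, against 174 of all 16461 genes tested. The median SD was 0.277 at day 1, 0.300 at day 3 and 0.322 at day 7, within the 0.239 to 0.512 of the 10 irradiated groups. Among genes well above background on all 16 arrays, the 15 with the largest spread were led by Serpina1a, a liver protease inhibitor, with an SD of 3.33, and by Mup2, Gm8893 and Mup20 at 3.26, 3.25 and 3.25. Major urinary proteins, serpins, Ambp, complement component Hc, fibrinogen chain Fgb and Apoc1 made up most of the rest, down to Adh1 at 2.76. At the other end stood Gdap2, with an SD of 0.0484 and a 1.19-fold range over all 16 mice, the signal recognition particle subunit Srp72 at 0.0624, and the proteasome subunit Psmc3 at 0.0805.

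**Figure D1:**
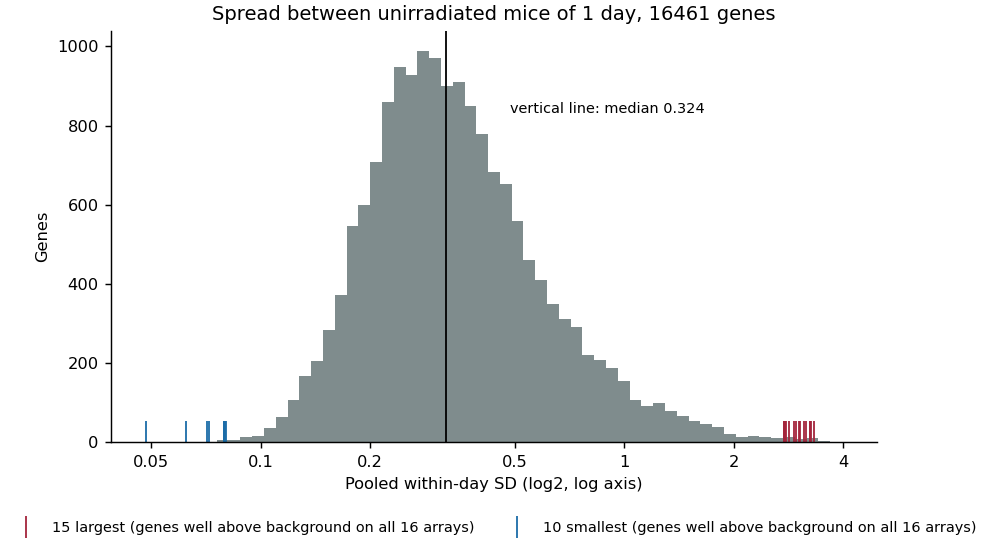
Number of genes (vertical axis) by pooled within-day SD in log2 units (horizontal log axis) over the 16 unirradiated mice, with ticks at the genes of largest and smallest spread. The median is 0.324, and the 15 marked genes on the right lie between 2.76 and 3.33.

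Hepatocyte transcripts were abundant in some control mice of days 1 and 3 and far lower in others of the same day. Alb, which encodes serum albumin, read 7.12, 0.99, 7.99, 8.78 and 2.69 in mice 1 to 5 of day 1 and -3.73, 8.54, 7.27, 1.77 and -0.44 in those of day 3. At day 7 it ran from -5.75 to -2.70 with a median of -4.76, below all but 1 mouse of the other days. The probe was well above background on all 5 arrays of day 1, all 5 of day 3 and 2 of 6 at day 7, and it did not enter the tests for that reason.

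The whole hepatocyte list gave the same order of mice within days 1 and 3. The mean level of its 41 measured genes was 2.68, -2.10, 3.66, 4.96 and -1.25 at day 1 and -4.44, 4.34, 2.87, -1.41 and -2.79 at day 3, and ran from -4.61 to -2.92 with a median of -3.83 at day 7. Mice 1, 3 and 4 of day 1 and mice 2 and 3 of day 3 were high, and days 1 and 3 overlapped. Between 32 and 41 of the 41 genes were well above background on the arrays of day 1, between 20 and 41 at day 3 and between 14 and 27 at day 7. On all 72 arrays, with the irradiated mice included, the list level was above 0 in 24 of 28 mice of day 1, 11 of 16 of day 3 and 6 of 28 of day 7. Of the 16 list genes that entered the tests, 3 were called lower at day 7 than at day 1, against 1.79% of all genes, and 0 in the other comparisons by limma or the random variance test, with 0 (days 3 and 1) and 5 (days 7 and 3) at an unadjusted p below 0.05. The median log2 change of these 16 was -3.01 between days 7 and 1, beside 0.01 over all genes.

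Ahsg, which encodes the plasma protein fetuin-A, fell by 8.62 ± 1.33 (SE, n = 5 and 6, limma, adjusted p = 0.0126) between days 1 and 7, with 4 of 6 arrays of day 7 well above background. Serpinc1, which encodes antithrombin, fell by 6.73 ± 1.21 (limma, adjusted p = 0.0161), also with 4 of 6 arrays of day 7 well above background, and Ambp by 6.46 ± 1.30 (limma, adjusted p = 0.0183). Among genes called with no overlap between these days, Mup17 fell most. It read 7.59, 2.79, 7.77, 9.05 and 3.57 at day 1, and from -6.52 to -0.69 with a median of -4.05 at day 7, where 4 of 6 arrays were well above background. These groups did not overlap, and Mup17 fell by 9.90 ± 1.35 (limma, adjusted p = 0.0103). The major urinary protein genes are near-identical copies whose probes may share transcripts. Of the 22 genes that were lower at day 7 than at day 1 by over 4-fold, 20 had a within-day correlation above 0.9 with the hepatocyte level over the 16 arrays, which share the centring of each array. Of the 5 such genes between days 7 and 3, 0 did, against 174 of all 16461 genes tested. Ahsg, Serpinc1 and Ambp are themselves in the hepatocyte list, so their correlation with its level is partly with themselves.

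**Figure D2:**
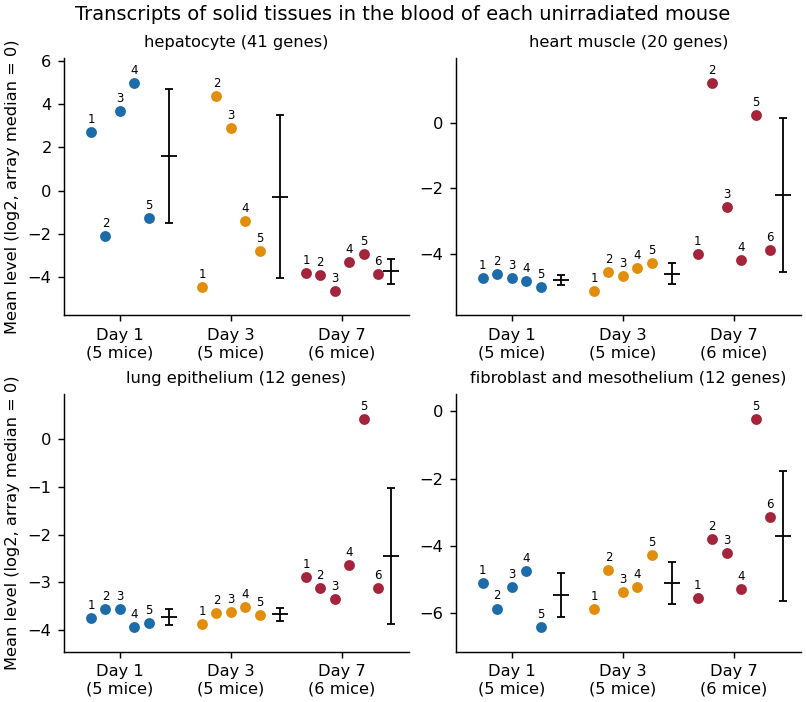
Mean level (vertical axis, log2 with the array median at 0) of 4 lists of solid tissue genes in each mouse, by day, numbered by replicate, with the mean and SD of the day in black. The hepatocyte list ranges from -4.61 to 4.96, and the heart, lung and fibroblast lists stand out in mouse 5 of day 7, the heart list also in mouse 2.

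Transcripts of heart muscle were high in mice 2 and 5 of day 7 and, at a lower level, present in mouse 3. Myh6, the cardiac myosin heavy chain, ran from -4.49 to 6.37 at day 7 with a median of -0.86, and it was 6.37 in mouse 2, 5.12 in mouse 5 and 0.76 in mouse 3. In the 10 mice of days 1 and 3 it lay between -6.54 and -4.22 and was well above background on 2 arrays. The 20 heart muscle genes averaged 1.20 in mouse 2 and 0.22 in mouse 5 of day 7, with 20 and 17 of them well above background, -2.55 in mouse 3, and between -5.10 and -3.85 in the other 13 mice. Mb, the myoglobin gene, was 5.10, 4.16 and 0.05 in mice 2, 5 and 3 of day 7 and at most -5.16 at days 1 and 3. Of the 7 tested, 1 was called in each comparison with day 7, against 0.577% and 2.5% of all genes called higher than at days 3 and 1. It was the atrial peptide gene Nppa, which was higher by 1.44 ± 0.30 than at day 3 (limma, adjusted p = 0.0356, but -0.33 when centred on the spike-in) and by 1.71 ± 0.39 than at day 1 (limma, adjusted p = 0.023). Without mice 2 and 5, an alternative chosen after seeing the data, 207 genes were called between days 7 and 3 and 541 between days 7 and 1, and 19 of 30 and 44 of 58 named genes were still called.

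Mouse 5 of day 7 also carried lung and connective tissue transcripts. Sftpc, the surfactant protein of alveolar type II cells, was 6.00 in this mouse and between -7.02 and -3.48 in the other 15. The 12 lung epithelium genes averaged 0.41 in it and between -3.93 and -2.65 elsewhere. The fibroblast and mesothelium list was at -0.23 in this mouse and at most -3.13 in the others, and the adipocyte list at -0.60 and at most -1.79. Connective tissue genes were not confined to mouse 5. Of the 12 fibroblast and mesothelium genes, 10 were well above background in it, and 9, 8 and 7 in mice 2, 6 and 3 of day 7. The adipocyte list was next highest in mouse 6 of day 7, at -1.79, and at most -2.71 in the remaining mice. The platelet list of mouse 5 of day 7 was the lowest of the 16, at 2.29 against 3.39 to 4.86.

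Neutrophil granule genes were high in mouse 4 of day 1 and mouse 1 of day 3, and acute phase genes in the first of these. Camp, which encodes the antimicrobial peptide cathelicidin of immature neutrophils, was 4.37 in mouse 4 of day 1 and between -1.55 and -0.85 in the other 4. At day 3 it was 6.13 in mouse 1 and between -1.03 and -0.59 in the rest, and at day 7 it ran from -1.39 to 0.49 with a median of -0.36. Ltf, which encodes lactoferrin, and Ngp, another secondary granule protein, were highest in the same mice, at 3.19 and 2.36 in mouse 4 of day 1 and 3.85 and 3.66 in mouse 1 of day 3. Saa2, a serum amyloid A of the acute phase, was 6.31 in mouse 4 of day 1, where the hepatocyte level was also highest, and at most 1.37 in the other 15 mice. The acute phase list was 3.47 in that mouse and -1.94 in mouse 1 of day 3, against 1.66 in mouse 2 of day 3. Mouse 4 of day 1 had the lowest B cell and T cell lists of its day, at 2.63 and 2.12 against at least 3.21 and 2.57. Camp was not called in any comparison (limma, adjusted p = 0.692 to 0.924).

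**Figure D3:**
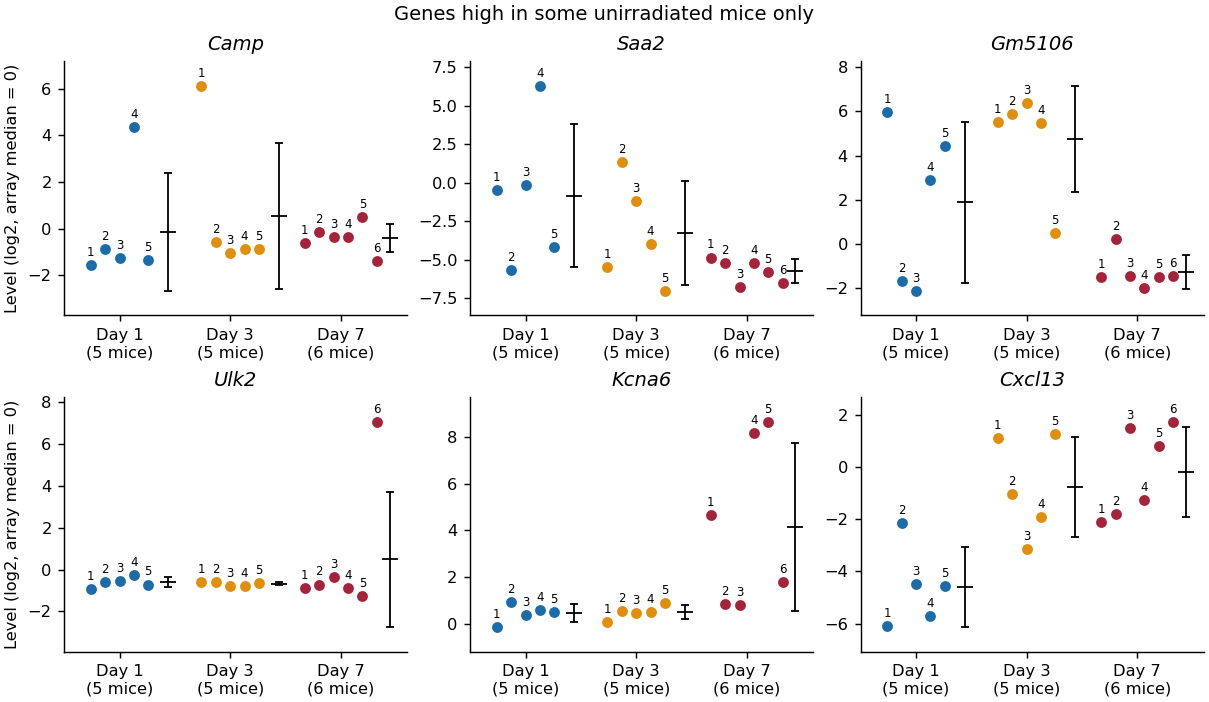
Level (vertical axis, log2 with the array median at 0) of 6 genes in each unirradiated mouse, by day, numbered by replicate, with the mean and SD of the day in black. Camp is high in mouse 4 of day 1 and mouse 1 of day 3, Ulk2 in mouse 6 of day 7, and Gm5106 takes high and low values within days 1 and 3.

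Among genes called with no overlap, the largest falls from day 3 to day 7 came from a pair that were high in some mice and low in others of the same day. Gm5106, a predicted gene, read 5.99, -1.70, -2.13, 2.90 and 4.41 at day 1 and 5.52, 5.89, 6.38, 5.49 and 0.48 at day 3, and ran from -1.98 to 0.21 with a median of -1.47 at day 7. Days 3 and 7 did not overlap, and day 1 held both high and low mice. Gm5106 fell by 6.03 ± 0.92 from day 3 to day 7 (limma, adjusted p = 0.0175). Wsb2, which encodes a WD repeat and SOCS box protein, followed the same mice, with 5.62, -0.996, -0.88, 2.86 and 4.00 at day 1, 4.95, 5.55, 6.14, 5.33 and 1.12 at day 3, and -1.31 to 0.71 with a median of -0.93 at day 7. It fell by 5.31 ± 0.78 (limma, adjusted p = 0.0175). The falls from day 1 to day 7, of 3.17 ± 1.33 and 2.82 ± 1.09, were not called (limma, adjusted p = 0.118 and 0.0949). Neither gene lay among those with a correlation above 0.9 to the hepatocyte level. Fam13c, chosen after its values were seen, fell by 3.80 ± 0.76 with overlapping groups (limma, adjusted p = 0.0317). The next calls with no overlap were Mfsd4a, 1700022A21Rik, ENSMUST00000178282 and the Golgi protein gene Trip11, at -2.08, -1.91, -1.75 and -1.71. Some genes that were not called fell further, such as Ahsg at -6.15 ± 1.80 (limma, adjusted p = 0.0854).

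Single mice stood out in other genes, which were chosen after their values were seen. Ulk2, which encodes a kinase of autophagy, was 7.07 in mouse 6 of day 7 and between -1.25 and -0.24 in the other 15 mice. Kcna6, a potassium channel gene, was 4.65, 8.18 and 8.65 in mice 1, 4 and 5 of day 7, 1.80 in mouse 6, and at most 0.92 in the others. Neither was called between any days.

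The 10 largest rises from day 1 to day 7 among genes called with no overlap are considered here. All but Cxcl13 were high in the same 4 mice, mice 1, 4, 5 and 6 of day 7, wherever they had a value. The probes of these genes have a composition in common. The spots of D14Ertd670e and Tsacc were outliers on the array of mouse 6 and were left out of its values. The first 30 bases, from the 5′ end, of the 60-base probes of 9 of the 10 are given here because of that composition. Those of 2 hepatocyte genes are given as well, Alb for contrast and Apoa2 as another probe that holds TCTCCC. Coordinates are those of the array design on build mm9, no annotation of that build was used here, and capitals mark CTCCC with a T before it where there is one.
Adam5, chr8:25843487-25843516, minus strand: cacagcttcTCTCCCactctaaaccatgaa
Lypd2, chr15:74562714-74562743, minus strand: aCTCCCttgtccctgacatcccagttccct
Mymk, chr2:26917624-26917653, minus strand: tcctgctgtcTCTCCCaaggtacttcctat
4930549C15Rik, chr12:27056483-27056512, plus strand: tcttgttcTCTCCCtttctgcattctgact
Cxcl13, chr5:96389861-96389890, plus strand: gatttattgtcttgcattaaaaccagtaac
ENSMUST00000050899, chr1:75482220-75482249, plus strand: tctgtctcCTCCCgccctgttttacatctt
ENSMUST00000136648, chr1:43518753-43518782, plus strand: tgaCTCCCtttatatgagcctatgcccctt
Tsacc, chr3:88086721-88086750, minus strand: gttcTCTCCCtggcttatgttgcaaactgt
Best2, chr8:87531190-87531219, minus strand: acctgtggcctctgttggtcttctgaccgt
Alb, chr5:90901598-90901627, plus strand: gctctgacagttgatgaaacatatgtcccc
Apoa2, chr1:173156445-173156474, plus strand: gctagagccccTCTCCCtaccttctgcctg
Of the 10 rises, 7 had a probe with CTCCC, 4 of these with TCTCCC, and 9 had over 60% C and T in the first 30 bases. CTCCC, which lies within TCTCCC, was in the probes of 6.24% of the genes tested and TCTCCC in 1.87%, and TCTCCC in 1.31% of all 39429 probes.

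Adam5, which encodes a membrane protein of the ADAM family, read -2.44, -1.90, -2.44, -1.70 and -1.70 at day 1 and -1.72, -0.51, 0.72, -0.30 and -0.39 at day 3. At day 7 it ran from -0.25 to 6.32 with a median of 5.32, and mice 1, 4, 5 and 6 were at 5.24 or above while mice 2 and 3 were at -0.25 and -0.20. Adam5 was higher at day 7 than at day 1 by 5.74 ± 1.22 (limma, adjusted p = 0.0201). Apoa2, an apolipoprotein of the liver, showed how the same 4 mice differed in a gene whose level is otherwise that of the hepatocyte list. It was 7.04, 6.26, 6.59 and 6.43 in mice 1, 4, 5 and 6 of day 7 and 3.09 and 3.51 in mice 2 and 3, although Alb was at most -2.70 in all 6. Elane, which encodes neutrophil elastase and was chosen after its values were seen, has CTCCC from base 2 of its probe and was 7.50 to 8.66 in these 4 mice and 2.49 to 5.24 in the other 12. It was not called between days 7 and 1 (limma, adjusted p = 0.0234), as its unadjusted p was 0.00101.

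The 308 tested genes with TCTCCC in the probe include the 4 such rises above. Over all 308, the mean deviation from the probe's median over the 16 arrays was 1.65, 1.27, 1.84 and 1.25 in mice 1, 4, 5 and 6 of day 7. It was 0.13 and -0.01 in mice 2 and 3, and between -0.53 and 0.13 at days 1 and 3. For the 280 tested genes with the reverse complement GGGAGA it lay between -0.14 and 0.19 on all 16 arrays. The deviation was larger the nearer TCTCCC lay to the 5′ end of the probe, the end that on these arrays is free and away from the glass. With its first base within bases 1 to 10, the 4 mice deviated by 2.87 to 3.88, and within bases 41 to 55 by 0.10 to 0.46. Probes with over 70% C and T in the first 30 bases, in 617 genes, deviated by 0.97 to 1.39 in the 4 mice and by -0.52 to 0.13 on the other 12 arrays. Mice 1 to 4 of day 7 shared a slide, and mice 5 and 6 another. The E1A spike-in read 9.67 to 10.32 on the 4 arrays and 10.58 and 10.64 on those of mice 2 and 3. Among the irradiated mice, the deviation was above 1 in 2 of 5 after 0.25 Gy neutrons and 3 of 6 after 1 Gy neutrons at day 7, and in 0 of the other groups.

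**Figure D4:**
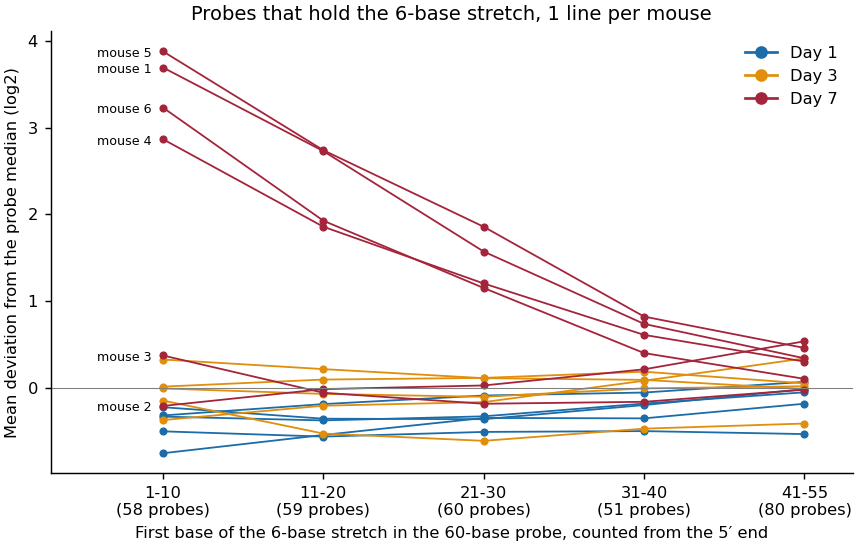
Mean deviation from the probe median in log2 units (vertical axis) of probes holding TCTCCC, by the position of its first base in the probe (horizontal axis), with 1 line for each of the 16 unirradiated mice. Mice 1, 4, 5 and 6 of day 7 fall from 2.87 to 3.88 at the 5′ end to 0.10 to 0.46 at the far end, and the other 12 lie between -0.76 and 0.53.

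These probes took a larger share of the genes called higher at day 7 than of all genes tested. CTCCC was in the probe of 19.5% of the 411 genes higher than at day 1 and of 1.69% of the 295 lower, and over 60% of C and T in 39.9% and 12.2%, against 18.4% of all. Among the 103 genes higher by over 4-fold the shares were 37.9% and 63.1%. Between days 7 and 3, CTCCC was in the probe of 12.6% of the 95 higher genes. Without all genes that have CTCCC or over 60% C and T in their probe, an alternative chosen after seeing the data, 12801 genes were left, of which 237 were called higher and 281 lower between days 7 and 1, and 72 and 219 between days 7 and 3. A match of these letters describes the probe, and whether the transcripts themselves differed was not tested.

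Cxcl13 encodes the chemokine that draws B cells into follicles. Of the 10 largest called rises with no overlap, it alone had under 60% C and T in the first 30 bases and no CTCCC. It read -6.08, -2.14, -4.47, -5.70 and -4.56 at day 1 and 1.13, -1.03, -3.13, -1.92 and 1.28 at day 3, and ran from -2.11 to 1.76 with a median of -0.22 at day 7. Days 1 and 7 did not overlap, and the probe was well above background on 2 of 5 arrays of day 1 and on all of the other days. It was higher at day 7 than at day 1 by 4.41 ± 0.88 (limma, adjusted p = 0.0183), and the difference of 0.55 ± 0.98 from day 3 was not called (limma, adjusted p = 0.798).

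Some genes of cytotoxic lymphocytes were higher at day 7 than at day 1. Of the 18 genes of the natural killer and cytotoxic list, 6 were called higher than at day 1, against 2.5% of all genes, and 0 lower, with a median change of 0.57. Xcl1, a chemokine of activated killer cells, read -0.85, -0.84, -0.03, -0.80 and -0.32 at day 1 and -0.57, -0.62, -0.17, -0.30 and -0.20 at day 3, and ran from 0.30 to 1.28 with a median of 0.81 at day 7. All mice of day 7 were above all others, by 1.39 ± 0.21 over day 1 and 1.19 ± 0.18 over day 3 (limma, adjusted p = 0.0126 and 0.0175), but the difference from day 3 was -0.59 when centred on the spike-in, and Xcl1 was the only gene of the list called against day 3. Gzma, which encodes granzyme A, was 6.12 to 6.43 at day 1 and 6.89 to 8.04 at day 7, higher by 1.02 ± 0.19 (limma, adjusted p = 0.0168), with a probe of 80% C and T in the first 30 bases. Granzyme B, Gzmb, was higher by 0.97 ± 0.19, and Fasl, the death receptor ligand, by 0.92 ± 0.12 (limma, adjusted p = 0.0181 and 0.0103). Mouse 2 of day 7, which was not high for the TCTCCC probes, had the highest list level, 2.52. Without the 4 mice high for those probes, and so with fewer mice, 0 of 58 named genes stayed called between days 7 and 1. Whether the composition of the probes had a part in the cytotoxic genes was not tested.

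Genes of cell division were higher at day 7 than at day 1. All 17 tested genes of the mitosis list had a positive change from day 1, with a median of 0.90, and 6 were called higher, against 2.5% of all genes, and 0 lower. Between days 7 and 3, 0 of 17 were called by limma or the random variance test, 10 had an unadjusted p below 0.05, and the median was 0.59. Cdk1, the kinase that drives entry into mitosis, read -3.90, -3.98, -3.73, -3.45 and -3.93 at day 1 and -1.92, -3.09, -3.10, -3.24 and -2.91 at day 3, and ran from -2.75 to -1.27 with a median of -2.12 at day 7. Days 1 and 7 did not overlap, and Cdk1 was higher by 1.75 ± 0.30 (limma, adjusted p = 0.015). Ccnb1, its cyclin partner, was higher by 1.56 ± 0.29, Birc5, which encodes survivin, by 1.25 ± 0.17 and Cdca8, a subunit of the same complex, by 1.18 ± 0.21 (limma, adjusted p = 0.0168, 0.0103 and 0.0157). The list was highest in mice 5, 4 and 6 of day 7, at 0.09, -0.04 and -0.34, and at most -0.66 in every other mouse. Of these genes, Cdk1, Birc5 and Cdca8 have probes with over 60% C and T in the first 30 bases and Ccnb1 does not.

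A few interferon stimulated genes were higher at day 7. Of 24 tested, 4 were called higher at day 7 than at day 1 and 2 higher than at day 3, against 2.5% and 0.577% of all genes, with medians of 0.40 and 0.33. Mx1, which encodes an antiviral GTPase, read -0.76, -0.64, -0.38, 0.23 and -0.59 at day 1 and 0.52, -0.41, 0.16, -0.10 and 0.09 at day 3, and ran from 0.53 to 1.06 with a median of 0.80 at day 7. All mice of day 7 were above all others, by 1.23 ± 0.18 over day 1 and 0.75 ± 0.16 over day 3 (limma, adjusted p = 0.0103 and 0.0422), but the difference from day 3 was -1.02 when centred on the spike-in. The chemokine gene Cxcl10 was higher than at day 1 by 1.46 ± 0.31 with overlapping groups, and the nucleic acid sensor gene Zbp1 by 0.85 ± 0.18 (limma, adjusted p = 0.0201 and 0.0199).

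Some red cell genes were higher at day 7 than at day 3 relative to the median of all genes, whereas Add2 and Epb42 were at -0.39 and -0.76 when centred on the spike-in, under which all genes shifted by a median of -1.76. Of 25 tested, 3 were called higher and 0 lower, with a median of 0.63, against 0.577% of all genes called higher. Add2 and Epb42, both genes of the red cell membrane skeleton, were among them. Add2 read -2.82, -2.22, -2.998, -2.37 and -2.91 at day 3 and ran from -1.97 to -0.74 with a median of -1.14 at day 7, without overlap, while the 5 mice of day 1 lay between -2.80 and -1.18 and overlapped with both. It was higher than at day 3 by 1.38 ± 0.25 and Epb42, of which the groups overlapped, by 1.01 ± 0.22 (limma, adjusted p = 0.0249 and 0.0434). Globin transcripts were depleted before labelling, and the probe of Hba-a1 was saturated on 10 of 16 arrays.

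A few T cell and B cell genes were lower at day 7. Lef1, a transcription factor of naive T cells, read 4.64, 4.31, 4.14, 3.68 and 4.55 at day 1 and 4.07, 3.96, 4.29, 4.62 and 4.10 at day 3, and ran from 3.22 to 3.77 with a median of 3.32 at day 7. It fell by 0.86 ± 0.19 from day 1, where mouse 4 overlapped with day 7, and by 0.80 ± 0.16 from day 3 (limma, adjusted p = 0.0207 and 0.0288). Bcl11b, which maintains T cell identity, fell by 1.09 ± 0.16 from day 1 (limma, adjusted p = 0.0111). These were the 2 of 22 T cell genes called between days 7 and 1, against 1.79% of all genes called lower, and the median of the list was -0.26. Between days 7 and 3, Lef1 was the 1 call of the list, against 1.51% of all genes called lower. Among 18 B cell genes, the transcription factor gene Ebf1 and the adaptor gene Bank1 fell from day 3 to day 7 by 0.73 ± 0.14 and 0.49 ± 0.11 (limma, adjusted p = 0.0284 and 0.0413), with a list median of -0.15. With 1 mouse left out in turn, Ebf1 stayed called in 4 and Bank1 in 1 of 11 fits. Between days 7 and 1, 0 of these 18 were called by limma or the random variance test, 6 had an unadjusted p below 0.05, and the median was -0.085.

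**Figure D5:**
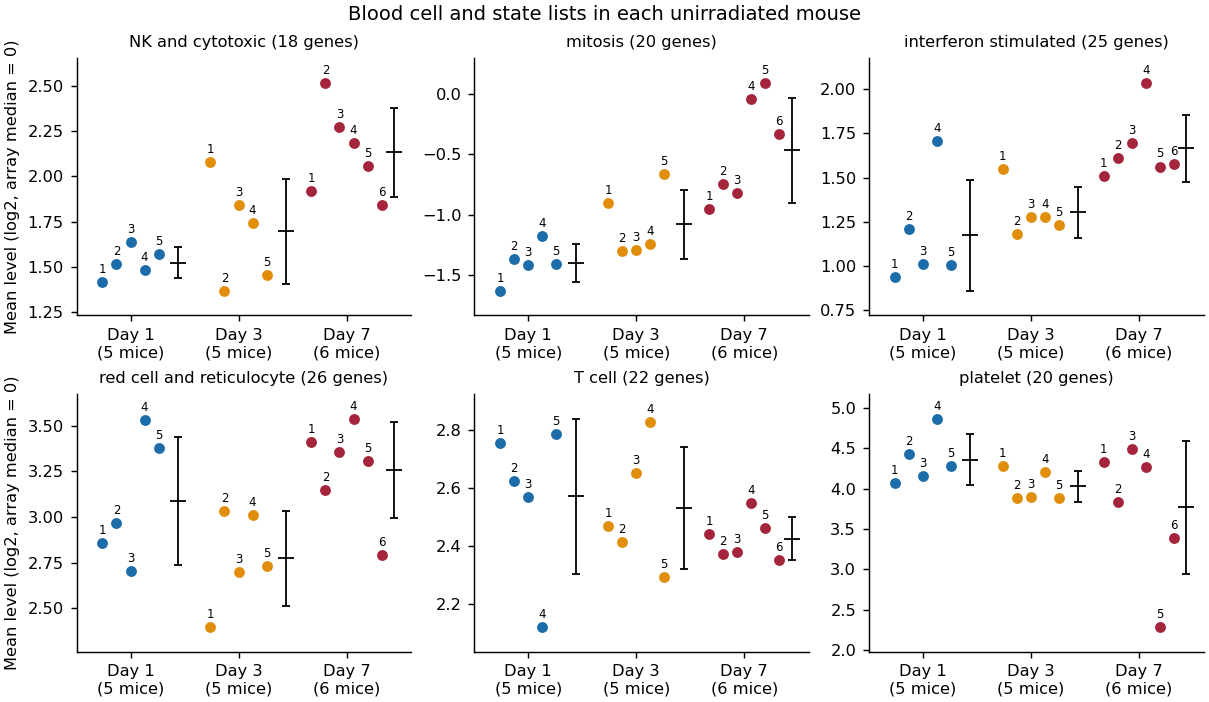
Mean level (vertical axis, log2 with the array median at 0) of 6 gene lists in each unirradiated mouse, by day, numbered by replicate, with the mean and SD of the day in black. The 6 mice of day 7 lie above all of day 1 for the cytotoxic and mitosis lists, and mouse 5 of day 7 is lowest for the platelet list.

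Neutrophil, eosinophil and platelet genes held few calls. Retnlg, a resistin-like gene of neutrophils, fell by 0.92 ± 0.18 from day 1 to day 7, and Ccr3, the eotaxin receptor of eosinophils, by 1.30 ± 0.28 (limma, adjusted p = 0.0181 and 0.0207), the only calls among 17 mature neutrophil and 7 eosinophil genes tested, against 1.79% of all genes called lower. None of the 20 platelet genes was called by limma or the random variance test. Of these, 9, 0 and 5 had an unadjusted p below 0.05 between days 3 and 1, 7 and 3 and 7 and 1, and 18 of 20 had a negative change between days 7 and 1, with a median of -0.55. Pf4, platelet factor 4, was 8.42 to 8.88 at day 1, 8.45 to 8.99 at day 3 and 7.56 to 9.18 at day 7. The monocyte, basophil, circadian clock, glucocorticoid response, immediate early, heat shock and p53 target lists held no gene called by limma or the random variance test in any comparison, with at most 5 genes of a list at an unadjusted p below 0.05.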

How the data were processed

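Blood RNA of 72 mice was hybridized to 1-colour arrays, and the 16 unirradiated mice were analysed here. The authors scanned the arrays and extracted spot intensities with Agilent Feature Extraction 12.0.2.2 per the file headers. The deposited intensity is corrected for background within the array and not normalized between arrays, and the table of values normalized between arrays was not used. The mean spot and local background intensities, as deposited, served for normexp (offset 50). Intensities were log2-transformed, outlier spots left out, replicate spots averaged, and the median over detected probes was subtracted array by array. Probes flagged on under 25% of the 16 arrays were kept, 1 probe (the brightest) per gene, which left 16461 of 31131 gene names. For 28324 of 39429 probes the name came from RefSeq through the accession, which changed 1402 names. Of the 44397 spots, 1377 were controls.

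Pairs of days were compared with limma 3.58.1 in R 4.3.3, called at p below 0.001 and Benjamini-Hochberg FDR below 0.05, and all 3 days with a moderated F test. The 1.5-fold filter of the methods, on 20% of arrays, was an alternative here. The script was tested on simulated data. Named genes were the 10 largest called rises and falls with no overlap, the 15 genes of largest and 10 of smallest spread, and the first 3 and up to 4 called members of 24 lists. Of 421 list entries, 7 had no probe by that name. The values of 1 called member and 1 probe sequence are not reported here. The members, lists and rules were chosen with earlier results of these data known. The p-values set a difference between days, which includes any shift between scan days, against the spread between mice within a day. The number of mice limits the precision. Alternatives were other centrings, background correction, filters, probe choice, a covariate, blocks and single mice left out.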

Additional observations from a re-analysis of the deposited data

Results flagged for a closer look

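The highest and the lowest mouse of each day were compared with the others by the gap to the nearest mouse, as a share of the range of the day, in 150 groups of values (23 lists, 26 genes and the probes with TCTCCC, at 3 days each). Of these, 18 stood apart, 9 of the 69 groups of list values and 9 of the 78 of gene values. Chance gives about 1 in 20 for independent groups that were not chosen by their values. That rate does not apply to the genes, since several were chosen for values that stood apart. It does not apply to the lists either, which were chosen with earlier results known and share the same mice. Mouse 1 of day 3 stood apart in 6 of the 18 groups, at 1.26 for the neutrophil granule list (others at most -0.84), 3.29 for the mature neutrophil list (at most 2.10), 1.55 for the interferon list (at most 1.28), 0.66 for the glucocorticoid response list (at most 0.33), 6.13 for Camp and -1.92 for Cdk1 (at most -2.91). Mouse 4 of day 1 stood apart in 3, at 2.63 for the B cell list (others at least 3.21), 4.37 for Camp and 0.16 for Bcl11b (at least 0.65).

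Mouse 5 of day 7 stood apart at 0.41 for the lung epithelium list, 6.00 for Sftpc and -1.48 for the circadian clock list (others at most -2.29). Ulk2 was at 7.07 in mouse 6 of day 7, and the interferon list at 2.04 in mouse 4 of that day. Mouse 5 of day 3 was low at 0.48 for Gm5106 and 1.12 for Wsb2, against at least 5.49 and 4.95. Gm5106 was at 0.21 in mouse 2 of day 7, and the heat shock list at 2.28 in mouse 2 of day 3.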

How the results depend on the processing

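The counts called depended on the processing, and the causes were not tested. Centring on the E1A spike-in shifted the median of all genes by 2.08 (day 3 minus 1), -1.76 (7 minus 3) and 0.31 (7 minus 1), and called 15857, 12964 and, over the 3 days, 15471 genes. Under it Add2, Epb42, Mx1, Nppa, Oas3 and Xcl1 reversed between days 7 and 3, to -0.39, -0.76, -1.02, -0.33, -1.13 and -0.59, and the cytotoxic and interferon lists differed by 0.91 and 0.79 between days 7 and 1 (0.61 and 0.49 otherwise). Normexp called 0 genes between days 7 and 3, 7 and 1 and over the 3 days, with 1043, 1699 and 1297 at an unadjusted p below 0.05, a median SD of 0.530 and a mitosis list difference of 0.43 (0.93 otherwise). Between days 3 and 1, quantile normalization, no detection filter and 1 fit of all 16 arrays each called 1 gene, and detection within a day 2. Without the detection filter 970, 1251 and 1599 genes were called between days 7 and 3, 7 and 1 and over the 3 days (789 otherwise), with the 1.5-fold filter 121, 369 and 490. Detection within a day gave 527 and 1 fit of all arrays 579 between days 7 and 3. With the hepatocyte level as a covariate 0 genes were called between days 7 and 1 and 446 over the 3 days, and Apoc1 reversed to 0.044. The slide as a random block gave 0 between days 7 and 3 and over the 3 days.

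Alternatives chosen after seeing the data left out mice or genes. Without the mice high for the hepatocyte list, or without the 4 of day 7 high for the TCTCCC probes, 0 genes were called between days 7 and 3, 7 and 1 and over the 3 days, with fewer mice in each. Without the 2 mice high for heart genes 207 were called between days 7 and 3, and without genes of probes rich in C and T 505 over the 3 days. Leaving out 1 mouse gave 0 to 169 genes between days 3 and 1 (169 without mouse 1 of day 3), 1 (without mouse 4 of day 3) to 502 (without mouse 2 of day 7) between days 7 and 3, 215 (without mouse 1 of day 1) to 1247 (without mouse 3 of day 7) between days 7 and 1, and 389 (without mouse 4 of day 7) to 1172 (without mouse 3 of day 7) over the 3 days, and the median SD was 0.305 to 0.331. The named genes differed in how far their calls held. Of the 11 fits that each left out 1 mouse, Bank1, Epb42 and Mx1 stayed called between days 7 and 3 in 1. Nppa did so in 2, Ebf1 in 4, and Gm5106, Wsb2 and Xcl1 in 10. Between days 7 and 1, Adam5 and Nppa stayed called in 2 and Lef1 in 3, and Cdk1, Fasl and Mup17 in all 11.

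With the replicate number as a block, 102, 0 and 386 genes were called between days 3 and 1, 7 and 3 and 7 and 1, and 620 over the 3 days. Same-numbered mice of different days did not deviate together (4 of 15 correlations above 0.1, median 0.02, against 24 of 70 for other numbers). Whether the numbers pair the mice in another way was not tested.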
